A study of Homo sapiens with 24 samples.

Results

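A set of 40 genes of pre-mRNA splicing was followed across HaCaT keratinocytes exposed to arsenic: the SR proteins, the kinases and cyclins that act on them, factors that recognise splice sites, nuclear speckle proteins and hnRNP proteins, together with ZRANB2, whose intron holds the gene of miR-186. They are 40 of the 58381 gene IDs in the deposited table, chosen by symbol. Of the 40, 39 had a mean of at least 0.5 FPKM (fragments per kilobase of transcript, scaled to the mapped fragments of the library) over the 24 libraries and were tested among 14228 such genes. U2AF1 was the member below that level.

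HaCaT cells are human keratinocytes that grow without limit in culture but are not malignant. Clonal lines were transduced with an empty vector (3 lines) or with hsa-miR-186 (3 lines), and grown with 100 nM inorganic arsenic (iAs) or without it (0 nM). RNA was taken at weeks 12 and 29, which gave 8 groups of 3 libraries: vector 0 nM, vector 100 nM, miR-186 0 nM and miR-186 100 nM, each at both weeks. All 8 groups therefore carry a transduced construct, and untransduced cells were not analysed here. The labels call the samples independent biological triplicates but give no link between replicate numbers and clones, so the p-values measure the spread between these samples.

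Splicing removes introns from pre-mRNA. SR proteins carry domains rich in arginine and serine, bind exonic sequences and recruit the spliceosome to nearby splice sites. CLK kinases phosphorylate these domains and release SR proteins from nuclear speckles, and the L-type cyclins CCNL1 and CCNL2 are partners of splicing-associated kinases. hnRNP proteins bind the same transcripts and often act against SR proteins. Many of these genes control their own level through retained introns or poison exons, which leave transcripts in the nucleus or send them to nonsense-mediated decay. ZRANB2 is a zinc finger protein that binds 5′ splice sites.

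The promoters of the 4 members that passed the test in the arsenic comparison of vector clones at week 12 (LENG8, CCNL2, SRRM2 and CLK1), and that of CCNL1, the other L-type cyclin, are shown because the results below turn on these genes. RefSeq lists 2 promoters each for LENG8 and CLK1, and 1 of each is printed. Sequences run 5′ to 3′ on the gene's strand, over the stretch before and just after an annotated start, and come from RefSeq on GRCh38.p14. Capitals mark matches on either strand to any of the motifs searched: TGACGTCA (the cAMP response element, CRE), TGACNNNGC (the core of the antioxidant response element, ARE), TGCGCNC (the core of the metal response element, MRE), GAANNTTC (the core of the heat shock element), CACGTG (the E-box) and GGGCGG (the GC box). Matches may overlap or abut.
LENG8, chr19:54448949-54449248, plus strand: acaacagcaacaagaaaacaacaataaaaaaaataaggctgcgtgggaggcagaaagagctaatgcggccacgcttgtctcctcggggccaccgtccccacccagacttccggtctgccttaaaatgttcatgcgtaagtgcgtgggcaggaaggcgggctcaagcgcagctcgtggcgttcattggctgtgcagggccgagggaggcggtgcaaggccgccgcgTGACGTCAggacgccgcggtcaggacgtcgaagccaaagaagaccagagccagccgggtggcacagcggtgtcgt
CCNL2, chr1:1399286-1399585, minus strand: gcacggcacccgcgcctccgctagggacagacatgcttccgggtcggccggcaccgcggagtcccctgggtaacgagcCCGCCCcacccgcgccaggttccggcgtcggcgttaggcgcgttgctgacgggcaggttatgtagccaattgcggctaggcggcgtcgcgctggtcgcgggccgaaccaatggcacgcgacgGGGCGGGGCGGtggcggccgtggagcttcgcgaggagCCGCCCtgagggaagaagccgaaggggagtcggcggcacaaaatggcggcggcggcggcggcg
SRRM2, chr16:2752388-2752687, plus strand: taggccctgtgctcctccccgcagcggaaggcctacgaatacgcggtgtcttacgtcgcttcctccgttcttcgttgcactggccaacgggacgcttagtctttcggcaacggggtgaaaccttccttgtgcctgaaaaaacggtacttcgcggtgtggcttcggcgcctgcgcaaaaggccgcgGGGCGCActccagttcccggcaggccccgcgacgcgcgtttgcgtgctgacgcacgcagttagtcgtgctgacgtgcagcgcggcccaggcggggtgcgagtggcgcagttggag
CLK1, chr2:200864512-200864811, minus strand: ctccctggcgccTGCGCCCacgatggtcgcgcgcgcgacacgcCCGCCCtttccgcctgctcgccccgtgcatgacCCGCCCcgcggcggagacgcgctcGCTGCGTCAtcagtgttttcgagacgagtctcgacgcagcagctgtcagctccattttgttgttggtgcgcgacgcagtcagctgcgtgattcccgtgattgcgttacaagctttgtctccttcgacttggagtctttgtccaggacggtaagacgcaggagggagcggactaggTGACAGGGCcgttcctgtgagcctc
CCNL1, chr3:157160098-157160397, minus strand: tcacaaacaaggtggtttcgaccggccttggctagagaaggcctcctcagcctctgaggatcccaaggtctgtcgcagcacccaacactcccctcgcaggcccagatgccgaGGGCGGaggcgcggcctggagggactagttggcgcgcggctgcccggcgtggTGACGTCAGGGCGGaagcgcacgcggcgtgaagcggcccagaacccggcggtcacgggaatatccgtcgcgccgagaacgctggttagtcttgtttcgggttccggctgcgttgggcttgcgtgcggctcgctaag

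RefSeq gave 48 promoters for 36 of the 40 members, and these were matched by symbol. The CRE was in 2 of the 48, those printed for LENG8 and CCNL1, against 1.85% of all 35116 promoters of that length. The ARE core was in 8 of the 48, the CLK1 promoter among them, against 13.3% of all promoters. The MRE core was in 19, among them that of SRRM2, both of CLK1 and the LENG8 promoter that is not printed (chr19:54449407-54449706), against 20.0%. That other LENG8 promoter holds no CRE, 2 matches to the MRE core and 1 to the GC box. The GC box was in 24, against 45.0%, the E-box in 5, against 7.26%, and the heat shock element core in 1, against 6.77%. The median GC content was 64.2% for the members' promoters and 58.7% for all. A match is a string of letters and was not tested as a binding site.

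The libraries summed to between 712797 and 905683 FPKM, and 13803 to 14588 genes reached 0.5 FPKM in each. Read counts were not used here and the depth is unknown. Markers of keratinocytes were present in all libraries, with KRT5 at 359 to 1866 FPKM and TP63 at 49.2 to 88.6 FPKM. The defining markers of immune cells (PTPRC) and melanocytes (TYR) were at or near 0. Of the other melanocyte markers PMEL stood at 0.708 to 2.31 FPKM, and of the other immune markers CD14 reached 0.791 and CD3E 0.573 FPKM. Of the 6 fibroblast markers, COL1A2 and PDGFRA were at or near 0, while DCN reached 78.0 and LUM 17.2 FPKM, and their summed level was 95.6 FPKM in its highest library, miR-186 0 nM week 29 replicate 2. The libraries also differed in how levels depended on the GC content of the transcript. The slope of log2 level on GC content ran from -0.37 to 0.43 per 10 points of GC between libraries, and the changes of members that passed the test are therefore given also after a correction for GC content.

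**Figure D1:**
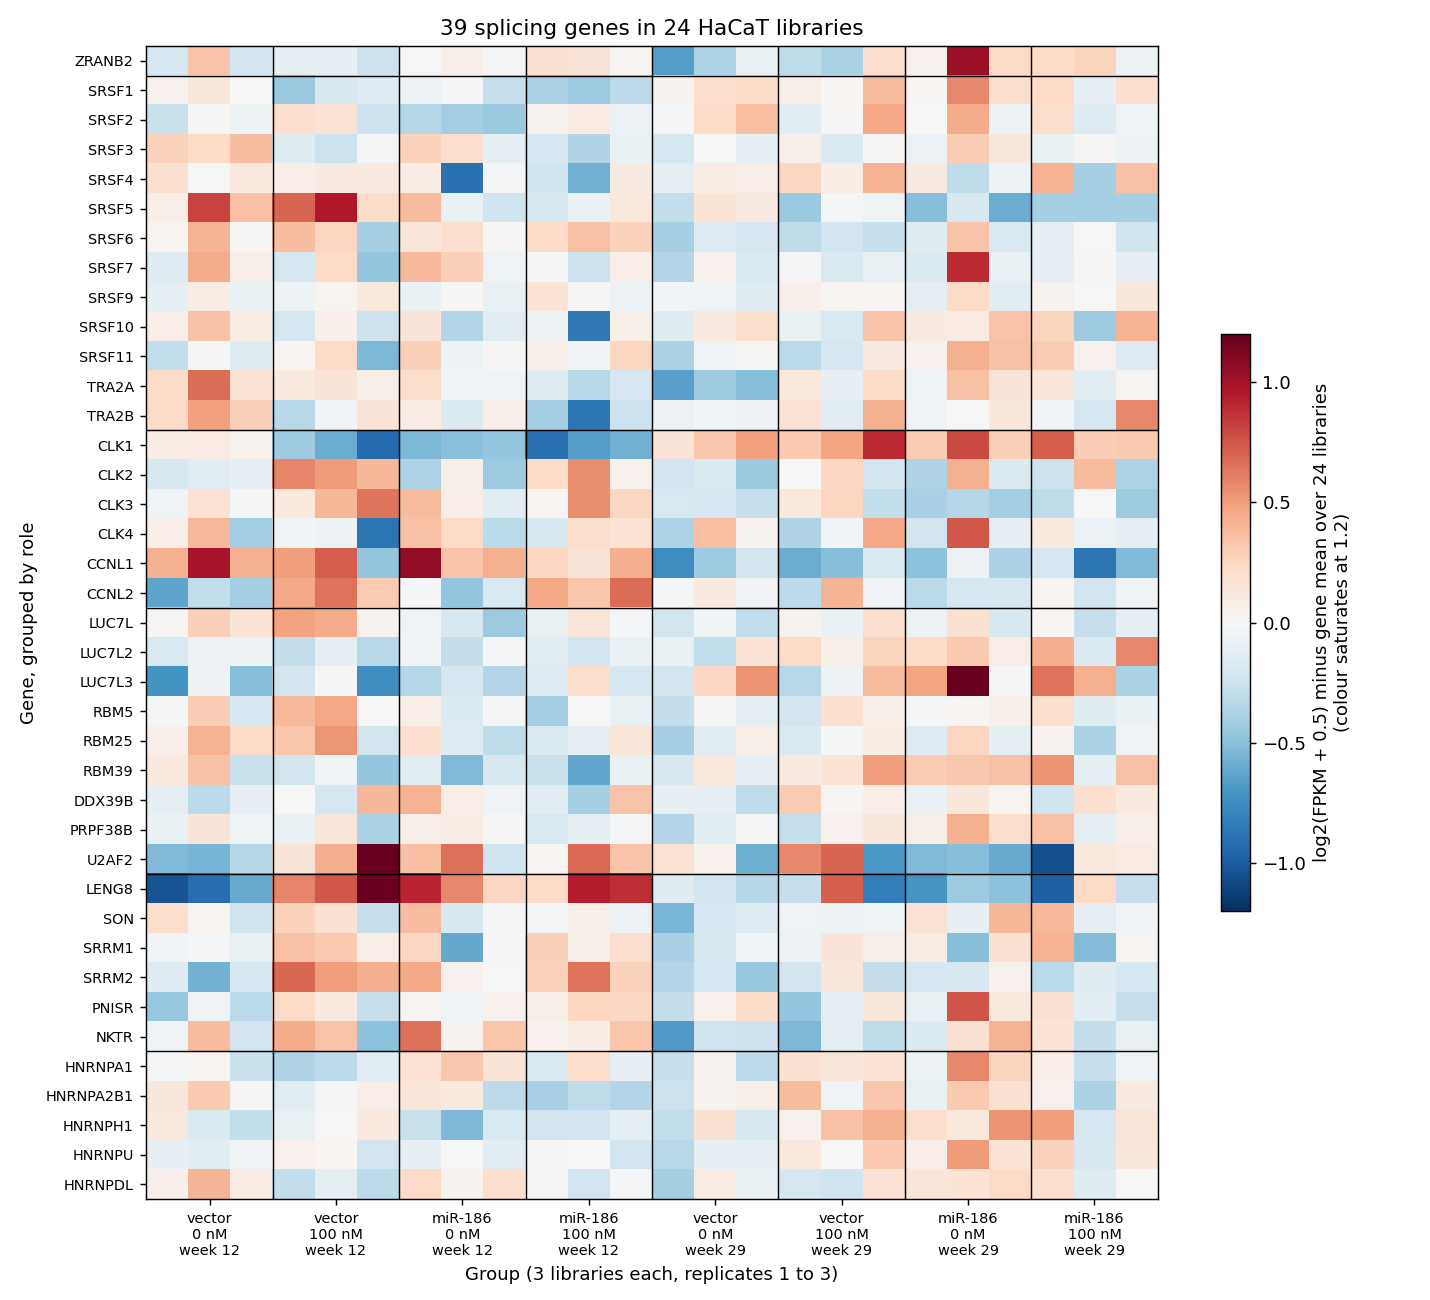
Levels of the 39 tested genes (rows, grouped by role) in the 24 libraries (columns, 3 per group), as log2(FPKM + 0.5) minus the gene's mean over the 24 libraries; red is above and blue below that mean. CLK1 is blue in 9 week 12 libraries and red in the week 29 libraries, and miR-186 0 nM week 29 replicate 2 holds the highest value of 11 of the 39 genes.

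The members differed widely in level. FPKM is a level per length, so genes can be set side by side on it. HNRNPA1, a pre-mRNA and mRNA packaging protein, had the highest mean over the 24 libraries at 1239 FPKM. HNRNPA2B1 followed at 475 FPKM, HNRNPH1 at 348, SRSF3 at 315 and RBM39 at 306 FPKM. Processed copies of HNRNPA1 are nearly identical to it and how reads that match several copies were counted is not given in the sources used here, so its level is uncertain. The lowest of the 39 tested members were LENG8 at 5.97 FPKM and NKTR, a cyclophilin with an RS domain, at 9.08 FPKM. Together the 40 members made up 0.554% to 0.830% of the FPKM of a library.

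SRSF9 was the steadiest member, with 69.1 to 89.8 FPKM over the 24 libraries, a ratio of 1.30 between highest and lowest. The largest ratios among the 39 were those of LENG8 (2.33 to 12.7 FPKM, 5.43), U2AF2 (10.6 to 55.1 FPKM, 5.18) and LUC7L3 (26.2 to 133 FPKM, 5.08). U2AF2 recognises the polypyrimidine tract and LUC7L3 is a homologue of a U1 snRNP component. The LUC7L3 maximum came from miR-186 0 nM week 29 replicate 2, where the other 2 libraries of the group stood at 61.5 and 43.8 FPKM. That library was the highest of the 24 for 11 of the 39 members, and vector 0 nM week 29 replicate 1 was the lowest for 8.

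ZRANB2 (ENSG00000132485, chromosome 1, 71063291 to 71081297, minus strand) is the host gene of MIR186. MIR186 lies at 71067631 to 71067716 on the same strand, inside intron 8 (71066935 to 71069275) of the transcripts ZRANB2-201, ZRANB2-202 and ZRANB2-207. MIR186 itself was listed at 0 throughout, and the mature miRNA has no poly(A) tail, so these libraries do not measure it. ZRANB2 stood at 27.5, 40.4 and 27.1 FPKM in the vector clones and at 31.6, 33.1 and 31.3 FPKM in the miR-186 clones at 0 nM and week 12. At 100 nM and week 12 it stood at 29.4, 29.7 and 26.7 FPKM in vector and at 36.3, 35.5 and 32.4 FPKM in miR-186 clones. The ranges overlapped at 0 nM, and at 100 nM every miR-186 library was above every vector library.

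At week 29 and 0 nM ZRANB2 stood at 19.9, 24.5 and 29.9 FPKM in vector clones and 32.9, 65.3 and 37.7 FPKM in miR-186 clones. The miR-186 libraries were all higher, and replicate 2 stood well above the rest. At week 29 and 100 nM the values were 25.6, 24.4 and 36.7 FPKM in vector and 37.2, 38.4 and 30.4 FPKM in miR-186 clones, and the ranges overlapped.

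The comparison of 100 with 0 nM iAs asks how continuous arsenic changed these genes. In vector clones at week 12, 4 of the 39 members passed limma's test at an adjusted p of 0.05, 3 higher and 1 lower, where 1.38% of all tested genes passed. Of the 3 that rose, 2 belong to the nuclear speckle group (LENG8 and SRRM2) and the third is the cyclin CCNL2, while the kinase CLK1 fell. None of the 12 SR proteins, 9 tested splice site factors or 5 hnRNP proteins passed. The median log2 change of the 39 was 0.04, with 20 above 0 and 19 below, and that of all genes was 0.00. With the GC correction, 33 of the 39 were above 0, with a median of 0.27.

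LENG8 (leukocyte receptor cluster member 8; ENSG00000167615, chr19:54448887-54462037) stood at 2.33, 2.57 and 3.30 FPKM in the 3 unexposed vector libraries and at 8.19, 9.22 and 12.7 FPKM in the 3 exposed ones. The groups were far apart, with every exposed library above every unexposed one. The log2 change was 1.69 ± 0.33 (SE; n = 3 each; limma adjusted p = 0.0411).

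CCNL2 (ENSG00000221978, chr1:1385711-1399328) stood at 45.5, 57.5 and 53.2 FPKM without and 96.9, 111 and 87.5 FPKM with arsenic. The groups did not overlap. Its log2 change was 0.92 ± 0.16 (limma adjusted p = 0.0411), a 1.89-fold rise on the log2(FPKM + 0.5) scale.

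SRRM2 (ENSG00000167978, chr16:2752329-2772538), a large scaffold protein of nuclear speckles, stood at 82.7, 62.1 and 79.2 FPKM without and 149, 130.4 and 125 FPKM with arsenic. Again no exposed library was as low as an unexposed one. The log2 change was 0.85 ± 0.16 (limma adjusted p = 0.0411).

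CLK1 (ENSG00000013441, chr2:200853009-200864744), a kinase that phosphorylates SR proteins, stood at 61.8, 62.2 and 59.9 FPKM without and 43.2, 38.3 and 30.2 FPKM with arsenic. The unexposed libraries lay close together and above all exposed ones. CLK1 fell by 0.73 ± 0.17 on the log2 scale (limma adjusted p = 0.0482).

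Of the members that did not pass, 3 are given as examples. The kinase CLK2 had a log2 change of 0.64 ± 0.21 (limma adjusted p = 0.0752) and U2AF2 one of 1.09 ± 0.36 (adjusted p = 0.0752). SRSF3, an SR protein that also takes part in mRNA export, had a change of -0.44 ± 0.13 (adjusted p = 0.0626). All 6 nuclear speckle members had changes above 0, from 0.06 to 1.69. Of the 12 SR proteins, 4 were above 0 and 8 below, with a median of -0.16, which turned to 0.14 after the GC correction.

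**Figure D2:**
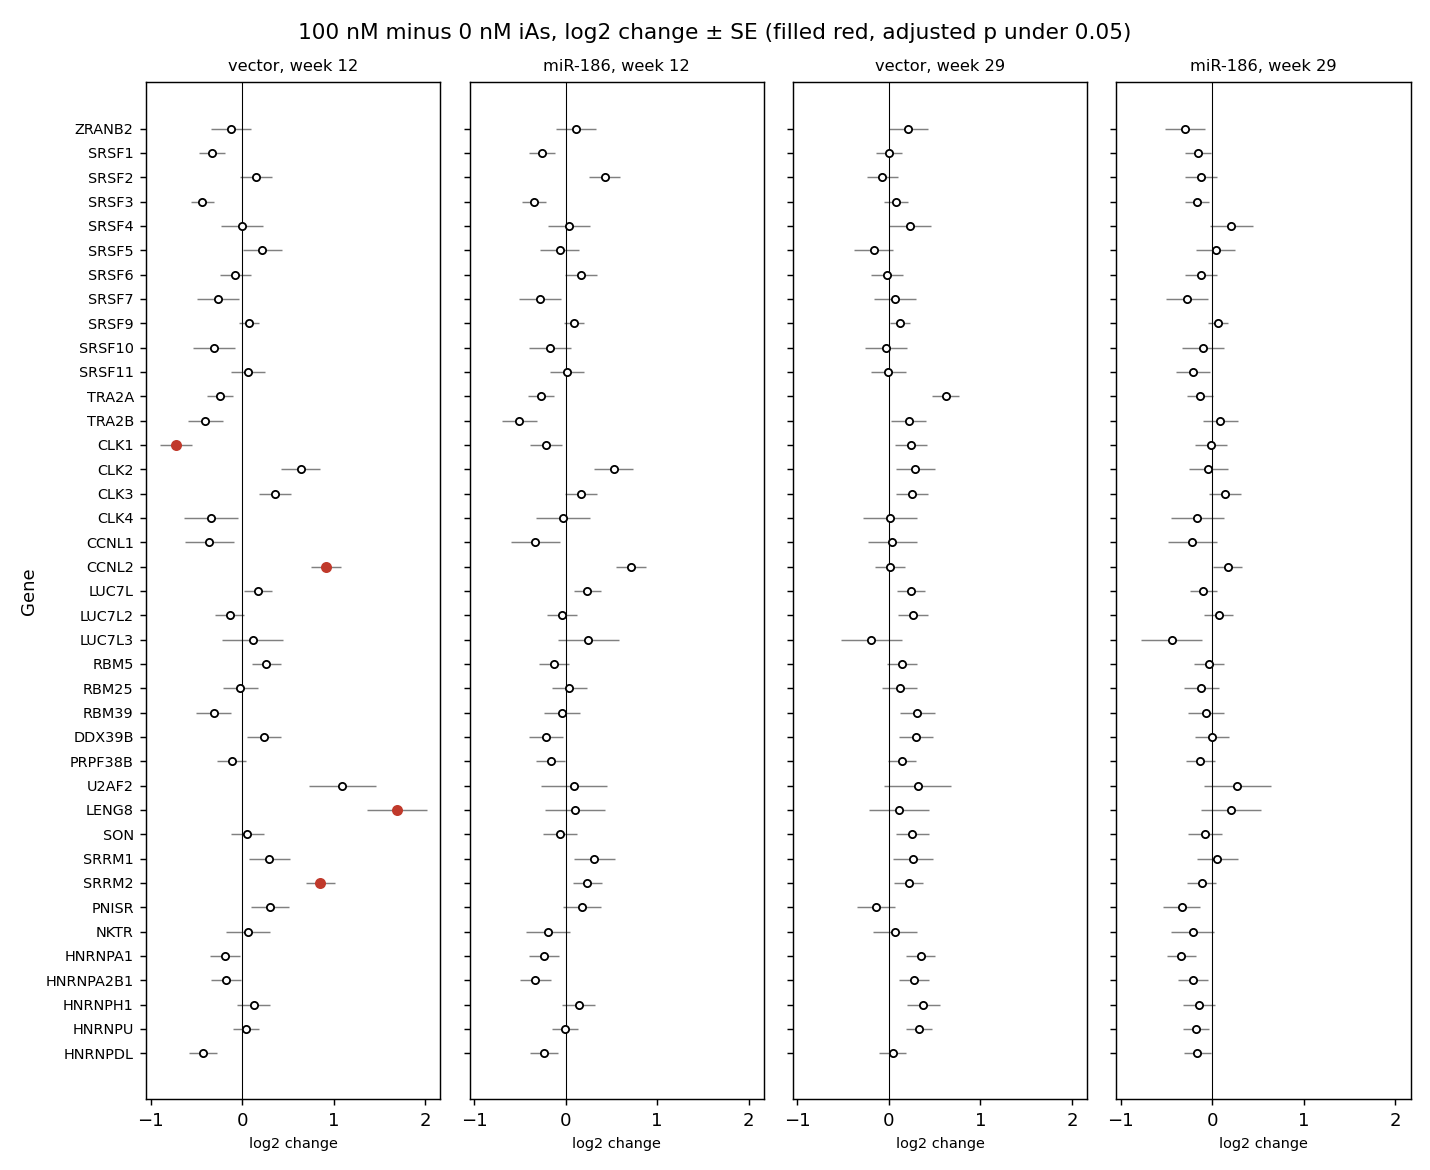
Log2 change ± SE on log2(FPKM + 0.5), 100 minus 0 nM iAs, of the 39 genes (rows) in the 4 comparisons of 3 against 3 libraries; filled red points have a limma adjusted p under 0.05. The 4 red points are CLK1, CCNL2, LENG8 and SRRM2 in vector clones at week 12, and the other 3 panels have none.

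GC content separated these genes. The GC content of the longest transcript was 61.6% for LENG8, 56.2% for SRRM2 and 50.8% for CCNL2, which rose, and 35.7% for CLK1, which fell, against a median of 41.2% for the 40 members and 47.9% for tested protein-coding genes. Over the 39 members the log2 change in vector clones at week 12 ran with GC content at Spearman's rho = 0.56, and over the 14208 genes with a GC value at 0.71. These are correlations across genes of the same 6 libraries, in which all genes of a library share its GC slope. Genes are not independent replicates. The GC slope was -0.127, -0.204 and -0.0775 per 10 points in the 3 unexposed libraries and 0.179, 0.226 and 0.427 in the 3 exposed ones, so it separated the groups as the genes did.

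After the correction for GC content the log2 change of CCNL2 was 0.86 (limma adjusted p = 0.0432), and it was the 1 member that still passed. Of the 14208 genes with a GC value, 8 passed. The corrected change of LENG8 was 1.02 (adjusted p = 0.116), that of SRRM2 0.48 (adjusted p = 0.183) and that of CLK1 -0.35 (adjusted p = 0.290). Without any 1 of the 6 libraries compared, none of the 4 passed, with adjusted p between 0.0644 and 0.108 for CCNL2, and up to 0.160 for CLK1. Over these 6 settings the LENG8 change ran from 1.52 to 1.82.

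**Figure D3:**
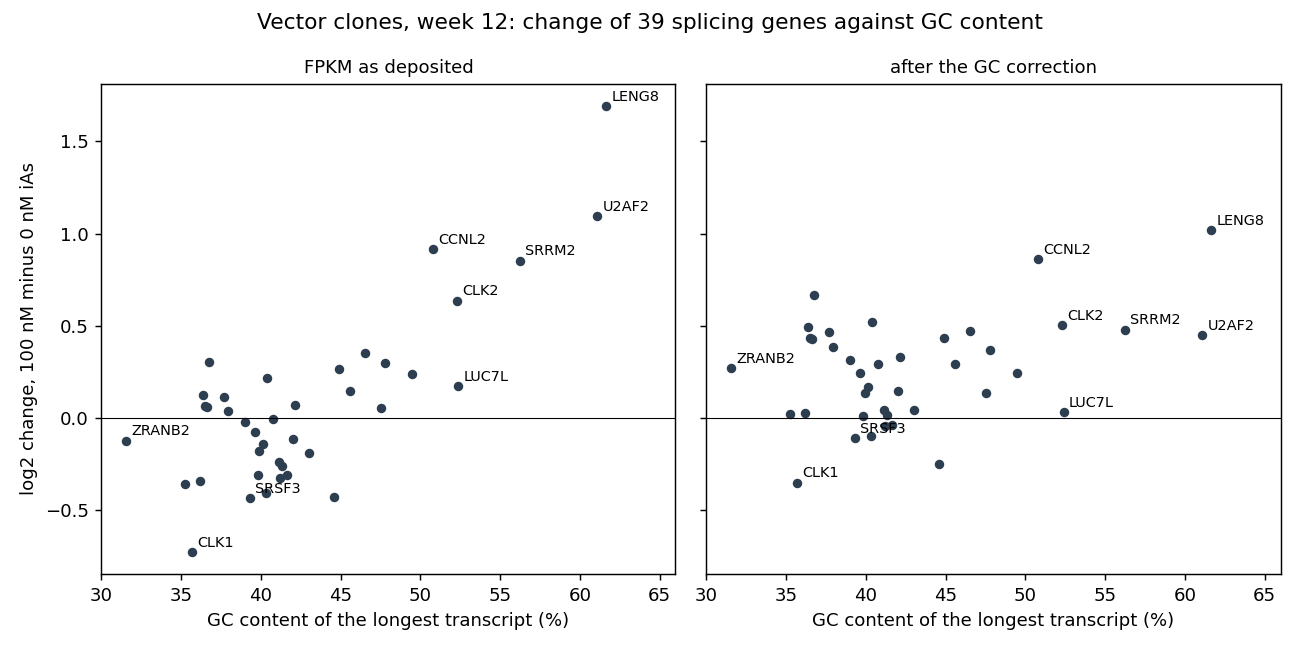
Log2 change (100 minus 0 nM iAs, vector clones, week 12) of the 39 genes against the GC content of their longest transcript, from FPKM as deposited (left) and after the GC correction (right). LENG8 moves from 1.69 to 1.02 and CLK1 from -0.73 to -0.35, while CCNL2 moves from 0.92 to 0.86.

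In miR-186 clones at week 12, none of the 39 members passed limma's test, where 0% of all genes passed; 5 members and 1558 of all genes had an unadjusted p under 0.05. CCNL2 had the smallest p, with 69.5, 50.8 and 62.2 FPKM without and 98.1, 89.3 and 113 FPKM with arsenic. Its groups did not overlap, and its log2 change was 0.72 ± 0.16 (limma adjusted p = 0.348). SRSF3 stood at 378, 359 and 289.7 FPKM without and 269, 242 and 294 FPKM with arsenic, a change of -0.35 ± 0.13 (adjusted p = 0.359), and its groups overlapped. LENG8, which rose in the vector clones, stood at 10.5, 8.12 and 6.39 FPKM without and 6.31, 10.6 and 10.2 FPKM with arsenic here. Its groups overlapped, and the change was 0.11 ± 0.33 (-0.12 after the GC correction).

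In vector clones at week 29 none of the members passed, where 0% of all genes passed; 4 members and 555 of all genes had an unadjusted p under 0.05 in limma. TRA2A (ENSG00000164548, chr7:23504780-23532041), an SR-like protein that activates exons, had the smallest p. It stood at 53.9, 63.1 and 59.6 FPKM without and 93.0, 79.6 and 99.8 FPKM with arsenic, a log2 change of 0.62 ± 0.14 (limma adjusted p = 1.00), and the groups did not overlap. HNRNPU, a nuclear matrix protein, stood at 159, 187 and 186 FPKM, against 219, 199 and 249 FPKM, a change of 0.33 ± 0.14 (adjusted p = 1.00). The exposed libraries were all higher than the unexposed ones. All 5 hnRNP members had changes above 0, with a median of 0.33 (0.36 after the GC correction), and 3 of them had an unadjusted p under 0.05. Most other members moved the same way: of all 39, 32 were above 0, with a median of 0.15 (0.15 after the GC correction).

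In miR-186 clones at week 29 again none passed, where 0% of all genes passed; 1 member and 312 of all genes had an unadjusted p under 0.05 in limma. HNRNPA1 stood at 1171, 1819 and 1468 FPKM without and 1289, 1011 and 1184 FPKM with arsenic, a log2 change of -0.34 ± 0.16 (limma adjusted p = 0.999). PNISR, an RS-rich protein, stood at 36.9, 66.3 and 42.6 FPKM, against 44.7, 35.7 and 32.3 FPKM, a change of -0.33 ± 0.21 (adjusted p = 0.999). Both pairs of groups overlapped. Here all 5 hnRNP members had changes below 0, with a median of -0.18 (-0.09 after the GC correction). Of all 39 members, 29 were below 0, with a median of -0.12 (-0.04 after the GC correction).

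The 4 arsenic comparisons share no libraries, but both weeks of a construct come from the same clonal lines, so the 4 are not fully independent. Of the 39 members, 6 had a change above 0 in all 4 (CCNL2, CLK3, LENG8, SRRM1, SRSF9 and U2AF2) and 1 below 0 in all 4 (SRSF10), which is 17.9%, against 34.9% of all 14228 genes. After the GC correction 6 were above 0 in all 4, with LUC7L2 and SRSF4 in place of LENG8 and U2AF2, and 0 below. CCNL2 had the changes 0.92, 0.72, 0.01 and 0.17 in vector and miR-186 clones at week 12 and in vector and miR-186 clones at week 29. Across the 39 members the changes of vector and miR-186 clones at week 12 ran together at Spearman's rho = 0.74, against 0.59 over all genes. The GC slopes of the miR-186 libraries at week 12 were 0.0823, 0.143 and -0.0904 without and 0.104, 0.369 and 0.156 with arsenic, so they too were mostly higher with arsenic.

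The comparison of miR-186 with vector clones asks how the clones with the transduced miRNA differed. Each construct has its own clonal lines, so construct and clone cannot be told apart. At 0 nM and week 12, 1 of the 39 members passed limma's test, where 3.44% of all genes passed. LENG8 stood at 2.33, 2.57 and 3.30 FPKM in vector and 10.5, 8.12 and 6.39 FPKM in miR-186 clones. The groups did not overlap, and the log2 change was 1.43 ± 0.33 (limma adjusted p = 0.0189), or 1.14 after the GC correction (adjusted p = 0.00323). The unexposed vector libraries are the same ones as in the arsenic comparison of vector clones at week 12, so these results are not independent. The call was lost without vector replicate 1 (adjusted p = 0.0830) or 2 (0.0634), and without miR-186 replicate 1 (0.0871) or 2 (0.0692).

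CLK1 and SRRM2 did not pass there. CLK1 stood at 61.8, 62.2 and 59.9 FPKM in vector and 40.002, 41.0 and 42.0 FPKM in miR-186 clones, with no overlap and a log2 change of -0.57 ± 0.17 (limma adjusted p = 0.0712). SRRM2 had a change of 0.48 ± 0.16 (adjusted p = 0.0968).

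At 100 nM and week 12 none of the members passed, where 2.02% of all genes passed; 4 members and 2061 of all genes had an unadjusted p under 0.05 in limma. SRSF5, an SR protein, stood at 415, 497 and 298 FPKM in vector and 223, 242 and 279 FPKM in miR-186 clones. The groups did not overlap, and the log2 change was -0.67 ± 0.21 (limma adjusted p = 0.114). RBM5, a regulator of exon choice in apoptosis genes, stood at 44.2, 46.4 and 33.5 FPKM, against 25.1, 33.6 and 31.4 FPKM, a change of -0.45 ± 0.16 (adjusted p = 0.176), with a narrow overlap.

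At 0 nM and week 29, 2 of the 39 members passed, both higher in miR-186 clones, where 2.86% of all genes passed. TRA2A stood at 53.9, 63.1 and 59.6 FPKM in vector and 82.3, 109 and 94.8 FPKM in miR-186 clones, with no overlap. The log2 change was 0.68 ± 0.14 (limma adjusted p = 0.0143), or 0.52 after the GC correction (adjusted p = 0.0165). ZRANB2, whose values are given above, had a change of 0.81 ± 0.22 (adjusted p = 0.0467), or 0.66 after the GC correction (adjusted p = 0.0526).

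The ZRANB2 call was lost without miR-186 replicate 2 (log2 change 0.52, limma adjusted p = 0.203), without miR-186 replicate 3 (adjusted p = 0.0882), and without vector replicate 1 (0.213) or 2 (0.114). The TRA2A call was lost without vector replicate 1 (0.0815) and without miR-186 replicate 2 (0.0683) or 3 (0.0574). The libraries of miR-186 clones in this comparison had summed fibroblast markers of 3.86, 95.6 and 6.83 FPKM and those of vector clones 2.98, 5.27 and 2.71 FPKM, so the library that was highest for ZRANB2 was also highest for these markers. Summed keratinocyte markers were 2031, 1682 and 1678 FPKM in the miR-186 clones and 3176, 4008 and 2959.8 FPKM in the vector clones and did not overlap. The part of either marker set in the TRA2A and ZRANB2 results was not tested. Of the 39 members, 32 had a change above 0, with a median of 0.19 (0.09 after the GC correction) where the median of all genes was 0.02. In the lists described below, 40 of 47 other regulators (median 0.26) and 17 of 23 other hnRNP genes (0.18) were also above 0. Of the core spliceosome genes, 25 of 43 were above 0 (median 0.03).

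At 100 nM and week 29 none of the members passed, where 0.864% of all genes passed; 0 members and 2067 of all genes had an unadjusted p under 0.05 in limma. HNRNPA2B1 stood at 612, 457 and 587 FPKM in vector and 485, 359 and 507 FPKM in miR-186 clones, a log2 change of -0.30 ± 0.17 (limma adjusted p = 0.415). CLK3 stood at 35.4, 38.7 and 26.3 FPKM, against 26.1, 32.4 and 23.95 FPKM, a change of -0.27 ± 0.17 (adjusted p = 0.492). Both overlapped between constructs.

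ZRANB2 was 1 of 6 members with a change above 0 in all 4 construct comparisons, with LUC7L3, NKTR, PNISR, SRSF7 and SRSF11; SRSF2, SRSF4 and SRSF5 were below 0 in all 4. Together these are 23.1% of the members, against 36.3% of all genes. The 4 comparisons share no libraries but come from the same clonal lines, so their agreement in sign is not independent. After the GC correction 8 were above 0 in all 4, ZRANB2, LUC7L3, NKTR and SRSF11 still among them, and 8 below, SRSF2, SRSF4 and SRSF5 among them. The ZRANB2 changes were 0.04 and 0.28 at week 12 (0 and 100 nM) and 0.81 and 0.30 at week 29.

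**Figure D4:**
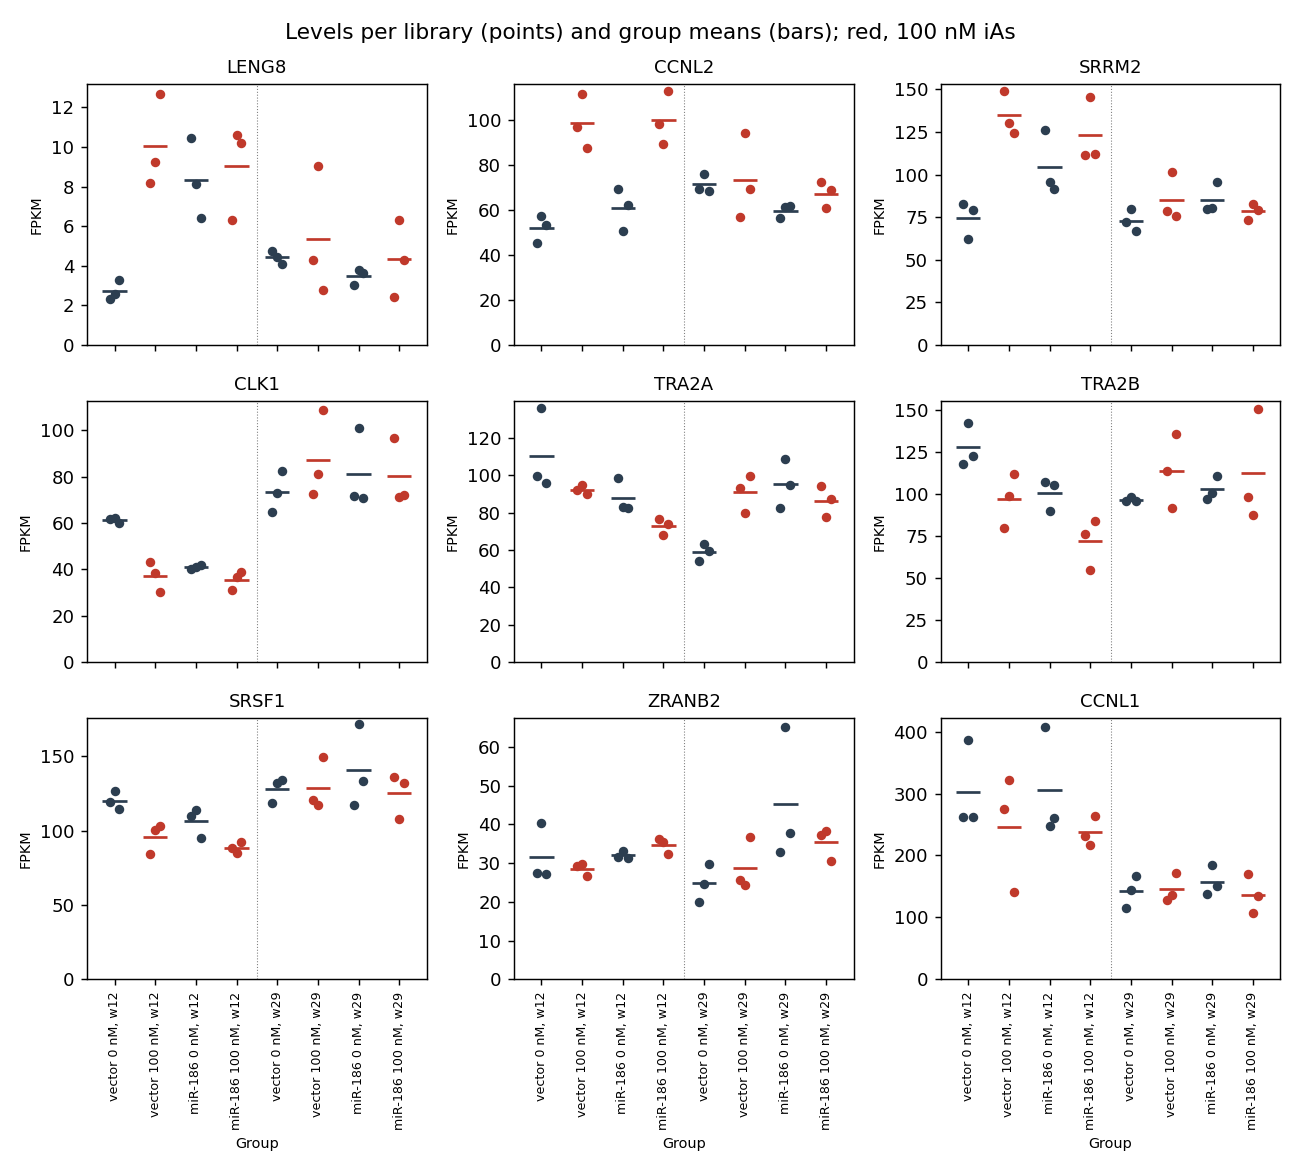
FPKM of 9 members in each of the 24 libraries (points; linear axes starting at 0), by group, with bars at the group means and red for 100 nM iAs; week 12 lies left and week 29 right of the dotted line. LENG8 has its lowest group mean in the unexposed vector libraries at week 12 (2.33 to 3.30 FPKM). TRA2A is lowest in the unexposed vector libraries at week 29 (53.9 to 63.1 FPKM), and CLK1 is higher at week 29 in each pair of groups.

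The comparison of week 29 with week 12 asks how the genes differed with time in culture, within each construct and dose. CLK1 rose in 3 of the 4 comparisons and was the 1 member to pass in more than 1. In vector clones at 0 nM, 1 of the 39 members passed limma's test, where 0.907% of all genes passed. In vector clones at 100 nM it was 1, against 0.183% of all genes. In miR-186 clones it was 1 at 0 nM, against 2.9%, and 6 at 100 nM, against 12.2%, which is close to the background.

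CLK1 stood at 43.2, 38.3 and 30.2 FPKM at week 12 and 72.3, 81.0 and 109 FPKM at week 29 in exposed vector clones, a log2 change of 1.21 ± 0.17 (limma adjusted p = 0.00190). In unexposed miR-186 clones it stood at 40.002, 41.0 and 42.0 FPKM, against 71.9, 101 and 70.9 FPKM, a change of 0.96 ± 0.17 (adjusted p = 0.00600). In exposed miR-186 clones it stood at 31.0, 36.6 and 38.8 FPKM, against 96.8, 71.4 and 72.3 FPKM, a change of 1.16 ± 0.17 (adjusted p = 0.00126). In all 3, every week 29 library was above every week 12 library. In unexposed miR-186 clones the summed keratinocyte markers also differed without overlap, with 4765, 3777 and 2207 FPKM at week 12 and 2031, 1682 and 1678 FPKM at week 29, and their part in the result was not tested; in the other 2 comparisons they overlapped.

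In unexposed vector clones CLK1 stood at 61.8, 62.2 and 59.9 FPKM at week 12 and 64.7, 73.2 and 82.3 FPKM at week 29. These groups did not overlap either, but the log2 change was 0.25 ± 0.17 (limma adjusted p = 0.712). After the GC correction CLK1 had changes of 0.99 (adjusted p = 0.00357), 0.74 (0.00962) and 0.85 (0.00503) in the 3 comparisons it passed. Leaving out any 1 of the 6 libraries compared kept each of these 3 calls, with adjusted p of at most 0.0256, 0.0377 and 0.0110. With a fit on only the 6 libraries compared, CLK1 passed in exposed miR-186 clones and in neither of the other 2.

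The other CLK kinases did not follow CLK1. CLK2 had log2 changes of -0.14, -0.49, 0.21 and -0.36 in unexposed and exposed vector and unexposed and exposed miR-186 clones, CLK3 of -0.25, -0.36, -0.49 and -0.52, and CLK4 of -0.00410, 0.35, 0.05 and -0.08, and after the GC correction CLK4 changed sign in the 2 unexposed comparisons. None of these 12 passed limma's test, and the difference between kinases was not tested.

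The cyclin CCNL1 had changes below 0 in all 4 comparisons without passing. Its levels were 261, 386 and 261 FPKM at week 12 and 116, 143 and 167 FPKM at week 29 in unexposed vector clones, where the groups did not overlap and the log2 change was -1.08 ± 0.27 (limma adjusted p = 0.0607). In exposed vector clones the change was -0.68 ± 0.27 (adjusted p = 0.267), in unexposed miR-186 clones -0.92 ± 0.27 (0.0616) and in exposed miR-186 clones -0.81 ± 0.27 (0.0505). After the GC correction CCNL1, a transcript of 35.2% GC, passed in unexposed vector clones (-0.99, adjusted p = 0.0480), unexposed miR-186 clones (-1.14, 0.0132) and exposed miR-186 clones (-1.12, 0.0130).

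**Figure D5:**
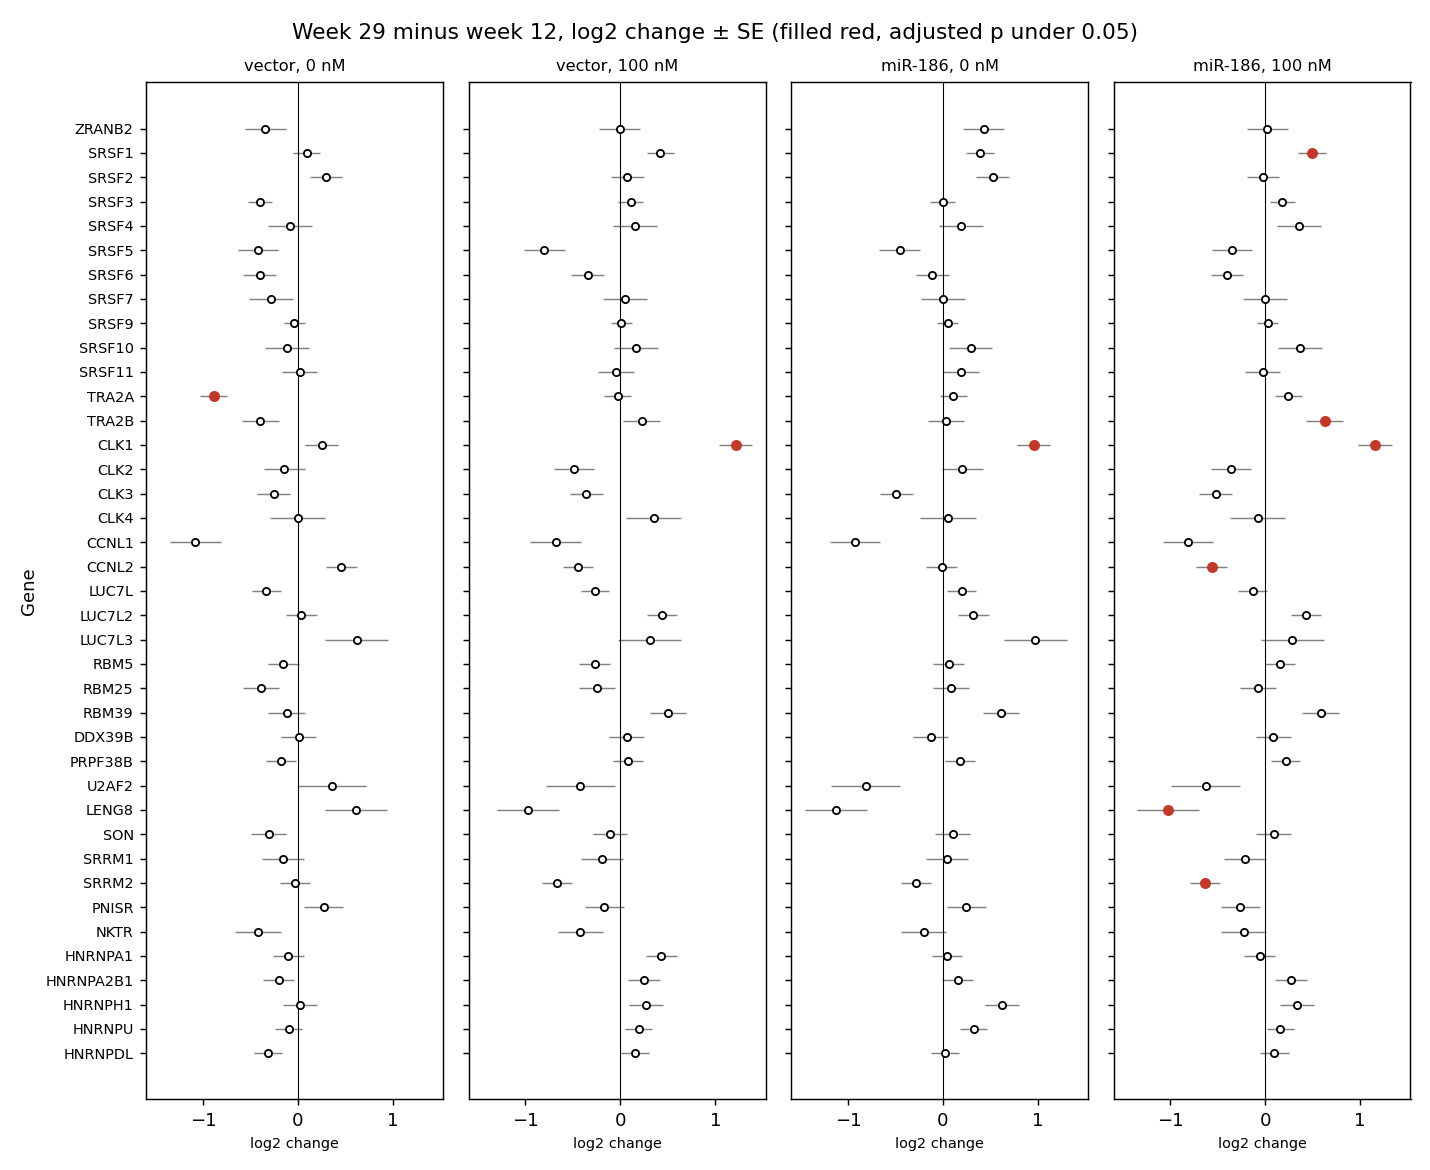
Log2 change ± SE on log2(FPKM + 0.5), week 29 minus week 12, of the 39 genes (rows) in the 4 comparisons of 3 against 3 libraries; filled red points have a limma adjusted p under 0.05. CLK1 is red in 3 panels (0.96 to 1.21), TRA2A in unexposed vector clones (-0.89), and CCNL1 lies left of 0 in all 4 without passing.

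Among the SR proteins, TRA2A fell in unexposed vector clones. Its levels were 99.8, 136 and 95.6 FPKM at week 12, against 53.9, 63.1 and 59.6 FPKM at week 29, and the groups did not overlap. TRA2A fell by 0.89 ± 0.14 on the log2 scale (limma adjusted p = 0.00247), with a GC-corrected change of -0.78 (adjusted p = 0.00102), and passed without any 1 of the 6 libraries. With a fit on only these 6 libraries it did not pass. The 3 unexposed vector libraries of week 29 had the lowest TRA2A values of all 24, and they are also part of the arsenic and construct comparisons in which TRA2A had the smallest p. In the other 3 groups its changes between weeks were -0.03, 0.11 and 0.24.

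In exposed miR-186 clones 3 members rose and 3 fell between the weeks. The paralogue TRA2B stood at 76.5, 55.2 and 84.1 FPKM at week 12 and 98.6, 87.9 and 151 FPKM at week 29, a log2 change of 0.62 ± 0.19 (limma adjusted p = 0.0412). SRSF1, the founding SR protein, stood at 88.5, 84.6 and 92.5 FPKM, against 136, 108 and 132 FPKM, a change of 0.49 ± 0.14 (adjusted p = 0.0352). Neither gene overlapped between weeks, and the third that rose was CLK1.

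SRRM2 stood at 112, 145 and 112 FPKM at week 12 and 73.3, 83.0 and 79.3 FPKM at week 29, a log2 change of -0.63 ± 0.16 (limma adjusted p = 0.0184). CCNL2 stood at 98.1, 89.3 and 113 FPKM, against 72.4, 60.8 and 68.8 FPKM, a change of -0.57 ± 0.16 (adjusted p = 0.0328). LENG8 stood at 6.31, 10.6 and 10.2 FPKM, against 2.44, 6.33 and 4.29 FPKM, a change of -1.03 ± 0.33 (adjusted p = 0.0465). All week 29 libraries were lower than all week 12 libraries for SRRM2 and CCNL2, and for LENG8 the highest at week 29 was just above the lowest at week 12.

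Among the 6 members that passed in exposed miR-186 clones, the direction went with GC content. The 3 that fell have a GC content of over 50% and the 3 that rose one of at most 41.2%. These 6 were picked by their change. Over all 39 members the change ran with GC content at Spearman's rho = -0.33, and over all genes with a GC value at -0.56. The GC slope was 0.104, 0.369 and 0.156 at week 12 and -0.369, 0.0467 and -0.0832 at week 29. After the GC correction 4 members passed: CLK1, CCNL2 (-0.54, limma adjusted p = 0.0472), CCNL1 and SRSF6 (-0.70, adjusted p = 0.0326). Of the 14208 genes with a GC value, 762 passed with that correction. The corrected changes of SRRM2 (-0.34), SRSF1 (0.22), TRA2B (0.34) and LENG8 (-0.47) did not pass. In this comparison libraries of the same number deviated together. With the replicate number as a block 10 members passed, where 3194 of all 14228 genes did. Among the 10 were RBM39, CCNL1, CLK2 and CLK3 beside the 6.

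Single libraries also moved that count. It was 1, CLK1 alone, without miR-186 100 nM week 12 replicate 2, without week 29 replicate 1 and without week 29 replicate 3, and it was 8 without week 29 replicate 2. SRRM2, for example, had an adjusted p of 0.134, 0.0767 and 0.0522 in the first 3 of these settings. In exposed vector clones 3 members passed in place of 1 without week 12 replicate 3 and without week 29 replicate 2, and in unexposed miR-186 clones 4 passed without week 12 replicate 3.

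The 4 week comparisons share no libraries, but both doses of a construct come from the same clonal lines, so the 4 are not fully independent. Changes were above 0 in all 4 for CLK1, HNRNPH1, LUC7L2, LUC7L3 and SRSF1, and below 0 in all 4 for CCNL1, CLK3, NKTR, SRRM2, SRSF5 and SRSF6, together 28.2% of the members against 35.1% of all genes. With the GC correction these 11 kept their sign but for LUC7L3, and PRPF38B, RBM25, SRRM1, SRSF3, SRSF7 and TRA2A were then also below 0 in all 4. SRSF5 had changes of -0.42, -0.80, -0.46 and -0.35. Across the 39 members, the changes of exposed vector and exposed miR-186 clones ran together at Spearman's rho = 0.85, against 0.76 over all genes. The changes of unexposed vector clones had a rho of 0.06 to 0.32 with the other 3 over the members and 0.05 to 0.20 over all genes. These are correlations across genes, which are not independent replicates.

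Whether arsenic acted differently at the weeks or in the constructs was tested as a difference of effects. None of the 39 members passed limma's test in any of the 4 such comparisons, and 0% of all genes passed in each. For arsenic by week in vector clones, 10 members and 1058 of all genes had an unadjusted p under 0.05. The smallest p were those of TRA2A (0.86 ± 0.20, limma adjusted p = 0.635), CCNL2 (-0.91 ± 0.23, same adjusted p) and CLK1 (0.96 ± 0.25, same adjusted p). By sign, the estimated arsenic effect on TRA2A and CLK1 was higher, and that on CCNL2 lower, at week 29, but these effects are not shown to differ.

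For arsenic by week in miR-186 clones 3 members and 439 of all genes had an unadjusted p under 0.05 in limma, with CCNL2 at -0.55 ± 0.23 (adjusted p = 1.00). For arsenic by construct at week 12 it was 3 members and 421 of all genes, with LENG8 at -1.59 ± 0.46 (limma adjusted p = 0.977). At week 29 it was 3 members and 272 of all genes, with TRA2A at -0.76 ± 0.20 (limma adjusted p = 1.00). There 36 of the 39 members had a difference below 0, with a median of -0.24 (-0.17 after the GC correction), where the median of all genes was -0.02. In the lists described below, 19 of 23 other hnRNP genes (median -0.29) and 39 of 47 other regulators (-0.21) were also below 0. Of the core spliceosome genes, 27 of 43 were below 0 (median -0.03). The arsenic effects on LENG8, which passed in vector and not in miR-186 clones, are thus not shown to differ.

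Other genes of the splicing machinery were counted from lists of the core spliceosome (43 genes, all tested), other hnRNP proteins (23, all tested) and other splicing regulators and SR-related proteins (48, 47 tested). In exposed vector clones at week 12, 2 core spliceosome genes fell, SNRPB2 of the U2 snRNP (-0.69 ± 0.15, limma adjusted p = 0.0422) and CWC22 (-0.68 ± 0.16, adjusted p = 0.0483), and none of the other 2 lists passed. With the GC correction these changes were -0.33 (adjusted p = 0.290) and -0.37 (adjusted p = 0.156) and did not pass. The medians of the 3 lists were -0.19, -0.16 and -0.04, beside 0.04 for the members, and after the GC correction -0.09, 0.07 and 0.15.

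Between constructs, CDK12, a kinase of RNA polymerase II, was higher in miR-186 clones in each of the 4 comparisons. Its log2 changes were 1.24, 1.17, 1.28 and 0.90 (limma adjusted p of at most 0.0339). Its GC-corrected changes were 1.36, 1.17, 1.15 and 0.81, and the last did not pass (adjusted p = 0.0611). The 4 comparisons share clonal lines, and construct and clone cannot be told apart in them. At 0 nM and week 29, 4 genes of the list of other regulators were higher in miR-186 clones, with CDK12, RBM17 and QKI having the smallest p. At 0 nM and week 12 SRSF8 was lower in miR-186 clones (-0.72 ± 0.19, limma adjusted p = 0.0430). RBM17, QKI and SRSF8 passed with the GC correction too. No core spliceosome gene passed between constructs.

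Between the weeks in exposed miR-186 clones, 9 of 43 core spliceosome genes rose and none fell, where 12.2% of all genes passed in either direction, with a median of 0.22 against 0.02 for the members (0.16 and -0.15 after the GC correction). The smallest p were those of SF3A3 (0.68 ± 0.13, limma adjusted p = 0.00737), CRNKL1 (0.80 ± 0.16, adjusted p = 0.00931) and PLRG1 (0.80 ± 0.18, adjusted p = 0.0141). With the GC correction 5 of the 9 core genes passed, these 3 among them. TARDBP, HNRNPK and HNRNPH3 rose among the other hnRNP genes, and U2SURP and RSRC1 among the other regulators, and none of these 5 passed with the GC correction. In the other 3 week comparisons no core spliceosome or other hnRNP gene passed. RSRC2 fell in unexposed vector clones (-0.78 ± 0.18, adjusted p = 0.0408), and QKI and RBM22 rose in unexposed miR-186 clones. RSRC2 passed with the GC correction (-0.68, adjusted p = 0.0492), and QKI and RBM22 did not.

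Both week 12 comparisons in which LENG8 passed use the same unexposed vector libraries, so their results are not independent. NEAT1, the RNA that builds paraspeckles, also passed in both. Its level was 51.9, 64.8 and 70.5 FPKM in unexposed and 219.8, 174 and 117 FPKM in exposed vector clones at week 12, a log2 change of 1.40 ± 0.25 (limma adjusted p = 0.0411). In unexposed miR-186 clones at week 12 it stood at 100.4, 146 and 151 FPKM, 1.07 ± 0.25 above vector (adjusted p = 0.0214). Its GC-corrected changes were 1.60 (adjusted p = 0.00981) and 1.19 (adjusted p = 0.00731). MALAT1, the RNA of nuclear speckles, did not pass in either comparison (0.53 ± 0.29, adjusted p = 0.220, and 0.98 ± 0.29, adjusted p = 0.0623), but passed in the second with the GC correction (1.15, adjusted p = 0.0182). The share of nuclear RNA in a library was not tested as a part of these results.

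Annotation features of the members are given as a description, with no test. In GENCODE release 29, 33 of the 40 (82.5%) have an annotated transcript with a retained intron, against 58.1% of 12014 tested protein-coding genes, and 36 (90%) have one marked for nonsense-mediated decay, against 43.9%. The members also have more annotated transcripts, with a median of 14.5 against 8, and these shares were not adjusted for that number. CCNL1 has 16 such retained-intron transcripts among 26, CLK1 8 among 15, CCNL2 9 among 20, SRRM2 13 among 31 and TRA2B 8 among 16. ZRANB2 has none among 7, and LENG8 has 1 among 9. The deposited FPKM are per gene, so a rise or fall of a member does not say which of its transcripts moved.

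Some members share sequence with other genes. U2AF1, which recognises the 3′ splice site, was listed at 0.0767 to 0.589 FPKM, with a median of 0.170. U2AF1L5, a near-identical copy on the same chromosome, was listed at 0.0891 to 0.765 FPKM, with a median of 0.205. How reads that match both were counted is not given in the sources used here, so neither value measures U2AF1. By annotated exons, 56.6% of SRSF1 is shared with AC015813.2 on the same strand (1.97 to 7.28 FPKM), 36.7% of SRSF2 with MFSD11 and 46.2% of SRSF9 with GATC on the other strand. SRRM2 shares 1.43% with ELOB, and LENG8 shares 3.74% with LENG9 and 2.46% with LENG8-AS1, all on the other strand. The library kit keeps the strand, but the strand setting of the counting is not given, so reads of such pairs cannot be told apart. CLK1, CCNL2, TRA2A and TRA2B had no such overlap.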

How the data were processed

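RNA of 24 HaCaT cultures was sequenced as poly(A) libraries (TruSeq Stranded mRNA), pooled in 1 run, per the labels' protocols. The authors deposited FPKM per gene; the submitters' processing notes name STAR 2.6.0c, Cuffdiff 2.2.1 and the build hg38 (GRCh38). Which annotation release and strand setting they used is not given in the sources used here. Depth is unknown, because FPKM hold no read counts.

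The 40 members and the other gene lists were chosen with earlier results of these data known. All 24 columns were mapped to samples by their labels, and no 2 libraries were identical. Of 58381 gene IDs, 58261 matched GENCODE release 29 (GRCh38), which gave names, coordinates and GC content. Tests used log2(FPKM + 0.5), and a gene entered if its mean over the 24 libraries reached 0.5 FPKM (14228 genes). limma 3.58.1 (R 4.3.3) was fitted to 8 groups at once, with an intensity trend and robust moderation. It was tested on simulated data. p-values were adjusted by Benjamini-Hochberg over all tested genes, threshold 0.05, in 12 comparisons of 2 groups and 4 differences of effects. The log scale understates changes of low genes.

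The GC correction subtracts from each library a natural spline (5 degrees of freedom) of transcript GC content, fitted to genes above 1 FPKM; 14208 of the tested genes (99.9%) have a GC value. The results were also recomputed with a pseudocount of 0.1 or 1, no filter or a mean of at least 1 FPKM, median ratio scaling, a fit on only the groups compared, a replicate block, and leaving out each library. All 40 members may be named. Values in every library are given for ZRANB2, for up to 6 members past the test with the smallest p, and otherwise for the 2 with the smallest p; those of CCNL1, and of CLK1 and LENG8 where they did not pass, were added after their values were seen. For other lists at most 3 genes with the smallest p are named.

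Replicate numbers were checked as pairs by the correlation, across genes, of deviations from the group means. Every number exceeded 0.1 in 4 comparisons: arsenic in vector clones at week 29 (0.49, 0.46 and 0.62), constructs at 0 nM and week 29 (0.21, 0.23 and 0.20), weeks in unexposed vector clones (0.31, 0.52 and 0.17) and weeks in exposed miR-186 clones (0.34, 0.41 and 0.39). The labels do not state this pairing, which was read from the values, and between constructs a number cannot mark a shared clone.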

Additional observations from a re-analysis of the deposited data

How the results depend on the processing

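The number of members past limma's test depended on the setting in 8 of the 16 comparisons. No change of a member that passed, or of the 2 with the smallest p elsewhere, reversed its sign under these settings. In vector clones at week 12 the 4 members past the arsenic test became 0 with no filter. With a fit on only the groups compared they also became 0. They became 7 with the replicate block, and 1 with the GC correction alone or with the block. Of all genes, 1428 of 14228 passed with the block, 8 of 14208 with the GC correction and 6 of 14208 with both. Without 1 library each, the count of members was 0 in all 6 settings. Between constructs at 100 nM and week 12 it was 1 (SRSF5) with the GC correction and replicate block together, where 807 of 14208 genes passed. Between constructs at 0 nM and week 29 the 2 members became 1 with no filter, 1 with median ratio scaling and 1 with the GC correction. They became 0 with a fit on only the groups compared, and 0 to 2 without 1 library. Of all genes, 216 passed with no filter, 380 with median ratio scaling, 482 with the GC correction and 153 with that fit. At 0 nM and week 12 the 1 member became 0 to 1 without 1 library. Between weeks, a fit on only the groups compared gave 0 members in unexposed vector, exposed vector and unexposed miR-186 clones and 1 in exposed miR-186 clones. Of all 14228 genes 67, 0, 101 and 103 passed, in that order. The GC correction gave 2 members in unexposed vector clones (2 with the block) and 2 in unexposed miR-186 clones (5 with the block). With both, 4 members passed in exposed vector clones. Of the 14208 genes with a GC value, these settings gave 150 (356 with the block), 335 (948 with the block) and 222. In exposed miR-186 clones the count of members was 2 with no filter, where 819 of 31357 genes passed, and 1 to 8 without 1 library. It was 1 to 3 without 1 library in exposed vector and 1 to 4 in unexposed miR-186 clones. The cause was not tested, though a fit on only 6 libraries has fewer samples.

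The replicate block gave 4 members in exposed vector clones, 6 in unexposed miR-186 clones and 10 in exposed miR-186 clones between weeks. Of all 14228 genes 338, 1381 and 3194 passed, in that order. In the 4 comparisons in which every number exceeded 0.1 the block changed no other call than those in exposed miR-186 clones. Counts over all genes moved too. In vector clones at week 12, 197 genes passed the arsenic test (93 higher, 104 lower), 494 with median ratio scaling (168 higher, 326 lower), 393 with a mean of at least 1 FPKM, 1428 with the replicate block, 8 with the GC correction, and 0 with no filter or with a fit on only the groups compared. Between weeks in unexposed miR-186 clones 412 passed (223 higher, 189 lower), against 315 with median ratio scaling (125 higher, 190 lower). In exposed miR-186 clones 1732 passed, against 819 with no filter, 762 with the GC correction, 3194 with the block and 103 with a fit on only the groups compared. When a library was left out, the spread was pooled over all 8 groups. Depth could not be weighed, because the files give FPKM alone.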
